A study of Mus musculus with 6 samples.

Results

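Cck and 8 other neuropeptide genes (Npy, Adcyap1, Vip, Sst, Tac1, Penk, Gal and Calca) were examined in the olfactory epithelium of mice, the lining of the nose in which odour-sensing neurons sit. Genes were taken by name; a member needed a probe set annotated with exactly 1 symbol, and the probe set was selected on the highest mean over the 6 arrays. Of the 9 genes, 8 were measured, out of 14860 genes with such a probe set, and Calca was not analysed here. Each of the 8 had 1 probe set, so the selection by mean made no choice among them. Cck heads the group because its difference between the sides was already known, so its values are given as a description without a test, and support nothing.

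The study used 3 C57Bl/6 mice, 5 days after a nostril had been closed on 1 side (unilateral naris occlusion). There were 3 arrays of the occluded side and 3 of the contralateral side, which had its own nostril open in animals that were all operated. The labels state that closure lowers odour stimulation on its own side and raises it on the other, so the open side was no untreated control, and they do not say which arrays share a mouse. Age and sex are not given in the sources used here, and p-values measure only the spread between these arrays.

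Neuropeptides are cut from larger precursor proteins by convertases, packed into dense-core granules and released to act on G protein-coupled receptors. In the nose they are known from trigeminal and autonomic nerve fibres, from glia and microvillar cells, and from some sensory neurons and epithelial cells. Transcription of many peptide genes responds to cAMP and calcium through the cAMP response element, and cAMP is the second messenger of odour detection in olfactory neurons. An array of whole tissue reads the messenger RNA made in the tissue itself, not peptide carried in along nerve fibres. Fewer cells of a type and less RNA per cell cannot be told apart in such samples.

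The stretches before the starts are shown for the letters at the core of the cAMP response element, which 6 of these genes hold there and Npy and Gal do not. Promoter sequences are those of RefSeq on build GRCm38.p6; 8 of the 9 genes had an annotated start, and Penk is named only. The letters TGACG, or CGTCA on the opposite strand, were searched in the 250 bases before each start, on both strands; the full palindrome TGACGTCA contains both. Capitals mark the match, and positions count backward from the annotated start. The Cck stretch lies at chr9:121495695-121495944 on the minus strand, with the match starting at position -47, and the others are 30-base windows around the match nearest to the start.
Cck: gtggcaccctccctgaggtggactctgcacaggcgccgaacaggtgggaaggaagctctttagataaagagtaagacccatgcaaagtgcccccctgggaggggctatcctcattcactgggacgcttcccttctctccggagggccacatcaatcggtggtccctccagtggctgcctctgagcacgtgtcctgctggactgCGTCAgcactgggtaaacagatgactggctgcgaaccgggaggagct
Sst: gcctccttggcTGACGTCAgagagagagtt
Vip: gggatcactactgTGACGtctttcggggag
Adcyap1: gggactaggatgcTGACGtcttttactgat
Tac1: ggctctacaggctCGTCAcgcctgagataa
The Sst window lies at chr16:23890874-23890903 on the minus strand (match at -48), the Vip window at chr10:5639126-5639155 on the plus strand (match at -79), the Adcyap1 window at chr17:93198913-93198942 on the plus strand (match at -91, counted from the nearer of its annotated starts), and the Tac1 window at chr6:7555005-7555034 on the plus strand (match at -43). Calca was the sixth gene that held the 5 letters. Among all 32851 annotated starts 17.8% held them. The full palindrome stood before Sst alone of these genes, and before 1.55% of all starts. A match of letters is a description of the sequence; binding was not measured.

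As background for the counts that follow, 0 of 23332 probe sets (0%) passed an adjusted p of 0.05 in limma, a linear model that shares variance between genes, with Benjamini-Hochberg adjustment. An unadjusted p under 0.05 was reached by 5.28%, made up of 3.81% with higher and 1.47% with lower occluded values. All values of one side lay beyond all of the other in 10.7%, made up of 7.49% with the occluded side above and 3.24% with it below. Differences are occluded minus contralateral throughout; over all probe sets their median on the log2 scale was 0.06, and 64.8% lay above 0. The median log2 value per array ran from 7.94 to 8.12. Occluded replicate 1 stood apart, with correlations of 0.977 to 0.983 to the other arrays, against 0.986 to 0.989 among the rest, and values that leaving it out moves by over 1.5 times are also given without it. Omp, the marker protein of mature olfactory neurons, had log2 values of 13.51 to 13.74, above every background reference gene described below.

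Of the 8 measured neuropeptide genes, 6 had a log2 difference above 0 and 2 below, with a median of 0.15; with each array centred on its median 4 lay above 0 and the median was 0.07. The sides did not overlap in 3 of the 8, Cck and Penk higher and Vip lower on the occluded side, beside 10.7% of all probe sets. The members were named with this contrast in view, so nothing is read from that count. Of the 7 genes other than Cck, limma called 0 after adjustment over all probe sets, with adjusted p-values between 0.823 and 0.947, and 1 of the 7, Penk, had an unadjusted p under 0.05.

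**Figure D1:**
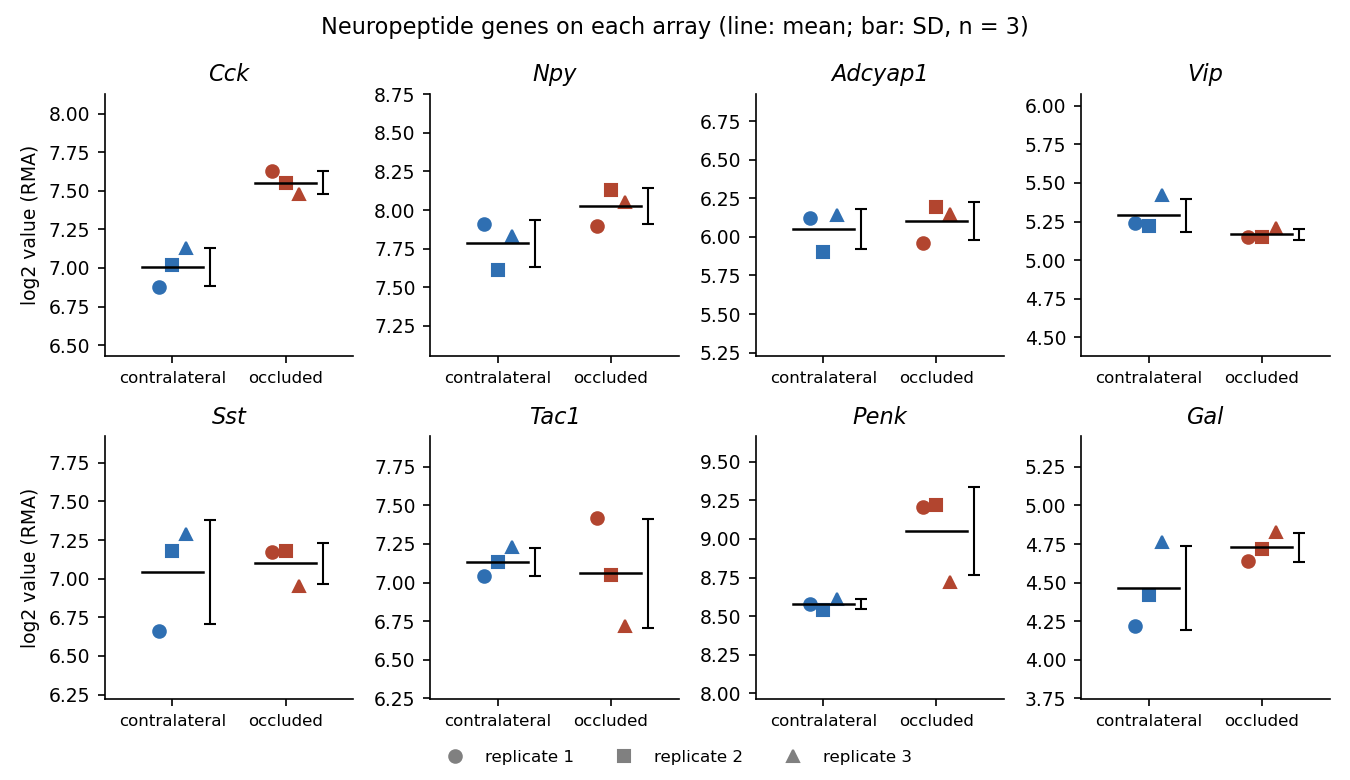
RMA log2 value (vertical axes, each spanning the same range of log2 units) of 8 neuropeptide genes on the contralateral (blue) and occluded (red) side. Points are arrays, shaped by replicate number, lines the side means and bars the SD (n = 3); Cck and Penk show occluded values all above the contralateral ones, Vip all below, and the other 5 genes overlap.

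Cck encodes cholecystokinin, a peptide of gut endocrine cells and of many brain neurons, the tufted cells of the olfactory bulb among them. Its log2 value was 7.63, 7.55 and 7.48 in occluded replicates 1, 2 and 3, and 6.88, 7.02 and 7.13 in contralateral replicates 1, 2 and 3. The 3 occluded arrays all lay above the 3 contralateral ones, with a gap of 0.35 between the lowest occluded and the highest contralateral value. The occluded mean was 7.55 ± 0.07 and the contralateral mean 7.01 ± 0.12 (SD, n = 3 each). The log2 difference was 0.54 (SE 0.10), a level 1.46-fold higher on the occluded side (1.36 to 1.56 at 1 SE either way), and 1.72% of all probe sets had a larger difference in that direction. It was 0.51 without occluded replicate 1, and between 0.48 and 0.60 with any 1 array left out. Centring each array on its median gave 0.46, cyclic loess 0.50 and a further quantile normalization 0.50.

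The Cck level was low on this array. Genes not expected in nasal tissue, 19 of 26 named and measured here as a background reference, had a median log2 value of 5.95 and reached 7.78 for Apoa2, a liver apolipoprotein. The mean of Cck over the 6 arrays, 7.28, lay within that range, above its median. Probes differ in brightness, so this places the signal near background without ranking Cck against other genes, and RMA differences of dim probe sets tend to be compressed.

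Penk encodes proenkephalin, the precursor of the opioid enkephalins. Its log2 value was 9.21, 9.22 and 8.72 in occluded replicates 1, 2 and 3, and 8.58, 8.54 and 8.61 in contralateral replicates 1, 2 and 3. Occluded replicates 1 and 2 were high, and occluded replicate 3 lay only 0.11 above the highest contralateral array. The spread was accordingly uneven, with an SD of 0.29 on the occluded and 0.03 on the contralateral side (n = 3 each). The log2 difference was 0.47 (SE 0.15), or 1.39-fold with an unadjusted 95% interval of 1.08 to 1.78, and limma gave an adjusted p = 0.823 over all probe sets. The difference was 0.64 without occluded replicate 3, 0.39 without occluded replicate 1 or without occluded replicate 2, and 0.19 with array quality weights. Those weights were 0.22, 0.57 and 7.02 for occluded replicates 1, 2 and 3. The weighted occluded mean therefore rests mainly on occluded replicate 3. Penk lay above every background reference gene, at a mean log2 value of 8.81.

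Npy encodes neuropeptide Y, known from sympathetic fibres and, in the rodent olfactory mucosa, from ensheathing glia and microvillar cells. Its log2 value was 7.90, 8.13 and 8.05 on the occluded and 7.91, 7.61 and 7.83 on the contralateral arrays, replicates 1, 2 and 3. Occluded replicate 1 fell just under contralateral replicate 1, and apart from that pair the occluded arrays were the higher. This gave a log2 difference of 0.24 (SE 0.11), with a 95% interval of -0.03 to 0.51 and a limma adjusted p = 0.823. It was 0.15 without contralateral replicate 2, 0.16 with each array centred on its median and 0.30 without occluded replicate 1.

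Gal encodes galanin, a peptide of sensory, autonomic and hypothalamic neurons. The occluded arrays read 4.64, 4.72 and 4.83 and the contralateral arrays 4.22, 4.42 and 4.76 (log2 values, replicates 1, 2 and 3). Contralateral replicate 3 lay among the occluded values, and the sides overlapped. Between the side means the log2 difference was 0.26 (SE 0.15), with a 95% interval of -0.10 to 0.62 and a limma adjusted p = 0.823. The mean of 4.60 was under the background median, so the size of this difference is not well measured, and it ran from 0.14 without contralateral replicate 1 to 0.41 without contralateral replicate 3. Array quality weights gave 0.47 with a limma adjusted p = 0.0884, the smallest adjusted value of any tested member under any alternative. The highest weights were 7.02 for occluded replicate 3 and 2.39 for contralateral replicate 1, so this value rests mainly on those arrays.

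**Figure D2:**
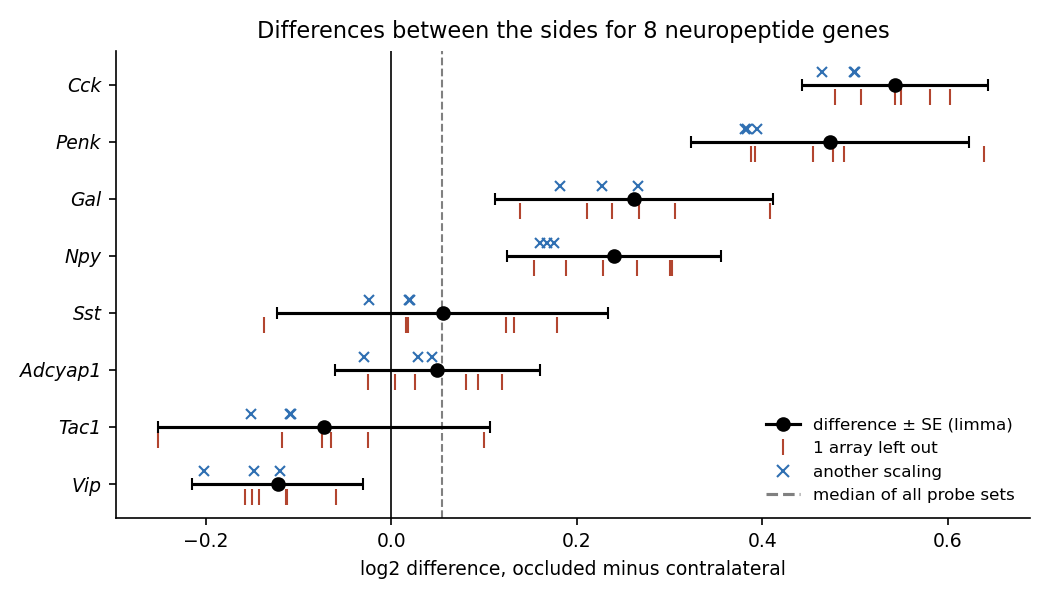
Log2 difference between the sides (horizontal axis, occluded minus contralateral) for each neuropeptide gene, with its SE from limma (black). Red ticks give the difference with 1 array left out, blue crosses under 3 other scalings, and the dashed line is the median of all probe sets, 0.06; the marks for Cck, Penk, Gal and Npy all lie above 0, those for Vip all below, and those for Sst, Adcyap1 and Tac1 on both sides of it.

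Vip encodes vasoactive intestinal peptide, a secretory and vasodilator peptide of parasympathetic neurons. Its log2 value was 5.15, 5.15 and 5.21 on the occluded and 5.24, 5.22 and 5.42 on the contralateral arrays. The sides did not overlap, but the gap between them was 0.01, and they overlapped under cyclic loess and under a further quantile normalization. The means differed by a log2 difference of -0.12 (SE 0.09), with a 95% interval of -0.34 to 0.10 and a limma adjusted p = 0.823, at a mean of 5.23, under the background median. It was -0.06 without contralateral replicate 3.

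Tac1 encodes the precursor of substance P and neurokinin A, peptides of pain-sensing fibres. Its log2 value was 7.42, 7.05 and 6.72 in occluded replicates 1, 2 and 3, the widest occluded spread of the 8 genes (SD 0.35, n = 3), and 7.04, 7.13 and 7.23 in contralateral replicates 1, 2 and 3. Occluded replicate 1 was the highest of the 6 arrays and occluded replicate 3 the lowest. Tac1 had a log2 difference of -0.07 (SE 0.18), with a 95% interval of -0.50 to 0.35 and a limma adjusted p = 0.928. Its sign turned to 0.10 without occluded replicate 3, and the value was -0.25 without occluded replicate 1. Its mean of 7.10 lay within the range of the background reference genes.

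Sst encodes somatostatin, an inhibitory peptide of interneurons and endocrine cells. It read 7.17, 7.18 and 6.95 on the occluded arrays and 6.66, 7.18 and 7.29 on the contralateral ones. Contralateral replicate 1 was the lowest of all and contralateral replicate 3 the highest. Sst had a log2 difference of 0.06 (SE 0.18), with a 95% interval of -0.37 to 0.48 and a limma adjusted p = 0.947. The difference was 0.02 without occluded replicate 1 and -0.14 without contralateral replicate 1. The mean of 7.07 lay within the background range.

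Adcyap1 encodes PACAP, a peptide related to VIP that raises cAMP and is known to protect olfactory neurons in culture. It read 5.96, 6.19 and 6.15 on the occluded arrays and 6.12, 5.90 and 6.14 on the contralateral ones, which were interleaved. Adcyap1 had a log2 difference of 0.05 (SE 0.11), with a 95% interval of -0.21 to 0.31 and a limma adjusted p = 0.920, close to the median of all probe sets. It was 0.12 without occluded replicate 1 and -0.025 without contralateral replicate 2. The mean of 6.08 lay 0.13 above the background median. For Sst, Adcyap1, Tac1, Vip, Npy and Gal, the 95% intervals leave room for differences of either sign.

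The receptors of these peptides were measured for 25 of 29 genes, and limma called 0 of them, with 15 above 0, 10 below and a median log2 difference of 0.03 beside 0.06 for all probe sets. At an unadjusted p under 0.05 there was 1, higher, beside 3.81% of all probe sets. Of the receptors of cholecystokinin, Cckar, its gut-type receptor, was at 0.10 (SE 0.10) and Cckbr, the brain-type receptor that gastrin shares, at 0.10 (SE 0.13). The median level of Cckar and Cckbr, 6.80, lay within the range of the background reference genes. The median level of the 25 receptor genes, 6.72, did so too, and 4 of the 25 lay under the background median. Small differences at such levels are not well measured. Leaving out 1 array moved Cckar between 0.03 and 0.16, and Cckbr between -0.0088, without occluded replicate 1, and 0.16. The 3 receptor genes with the smallest p were Ramp1, Galr2 and Ramp2.

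Ramp1, the accessory protein that makes Calcrl a receptor for CGRP, the peptide encoded by Calca, read 7.86, 7.47 and 7.21 on the occluded and 7.08, 6.97 and 7.14 on the contralateral arrays. Its occluded values were all above the contralateral ones, with occluded replicate 1 the highest. The log2 difference was 0.45 (SE 0.17), with a limma adjusted p = 0.823, and 0.27 without occluded replicate 1. Ramp2, which makes the same Calcrl a receptor for the vascular peptide adrenomedullin, was at 0.40 (SE 0.21), and Calcrl itself, outside the naming rule, at 0.23 (SE 0.15), with occluded replicate 1 again highest in both. Without it the differences were 0.17 for Ramp2 and 0.09 for Calcrl. The 6 endothelial markers (Pecam1, Cdh5, Kdr, Emcn, Tek and Flt1) moved with them: 6 of 6 lay above 0, and their mean log2 value was 8.50 in occluded replicate 1, 7.99 to 8.05 in the other occluded arrays and 7.73 to 7.96 on the contralateral side. Their part in the Ramp1, Ramp2 and Calcrl values was not tested. Galr2, a galanin receptor, was at -0.22 (SE 0.11), with the sides not overlapping, and at -0.13 without occluded replicate 3.

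Of 25 genes of precursor processing and dense-core granules, 20 were measured and limma called 0, with 11 above 0, 9 below and a median log2 difference of 0.07, or 0.04 without occluded replicate 1. Qpct, the enzyme that forms the N-terminal pyroglutamate of many peptides, read 7.56, 7.56 and 7.44 on the occluded and 7.31, 7.17 and 7.29 on the contralateral arrays, a difference of 0.26 (SE 0.09). Ptprn, a membrane protein of dense-core granules, went the other way, with 7.70, 7.46 and 7.53 against 8.02, 7.72 and 7.93, a difference of -0.33 (SE 0.12). In both genes the sides did not overlap, and both had a limma adjusted p = 0.823. Chga, chromogranin A of the granule core, was at 0.40 (SE 0.17), with occluded replicate 1 at 11.12 and the other arrays between 10.30 and 10.81; without that replicate it was at 0.26.

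Of 19 peptidases that degrade peptides outside or inside cells, 16 were measured and limma called 0, with 13 above 0, 3 below and a median of 0.10. That median was 0.036 without occluded replicate 1, 0.020 with each array centred on its median, where 9 lay above 0, and 0.025 under cyclic loess. Anpep, the aminopeptidase N that clips enkephalins, read 8.73, 8.47 and 8.55 on the occluded and 8.30, 8.23 and 8.13 on the contralateral arrays. The sides did not overlap, and the log2 difference was 0.37 (SE 0.10), with a limma adjusted p = 0.823. Phex, a bone cell peptidase, read 11.15, 11.10 and 10.58 against 10.22, 10.40 and 10.64, so its sides overlapped. Its difference was 0.53 (SE 0.19), with a limma adjusted p = 0.823, and 0.42 to 0.71 with 1 array left out. Dpp6, a peptidase relative that accompanies potassium channels, was at 0.19 (SE 0.11), or 0.11 without contralateral replicate 2.

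Among 57 other neuropeptide and peptide hormone precursors, 50 were measured and limma called 0, with 21 above 0, 29 below and a median of -0.01. The sides did not overlap in 6 of the 50, with 1 higher and 5 lower on the occluded side. The shares over all probe sets were 7.49% and 3.24%. The 5 lower genes, Trh, Nppa, Nppb, Nms and Pmch, had mean log2 values of 4.44 to 6.64, under the highest background reference gene. In the background reference list itself the sides did not overlap for 3 of 19 genes lower and 0 higher on the occluded side. Without occluded replicate 1, 17 of the 50 had a difference above 0 and the median was -0.04. Trh, thyrotropin-releasing hormone, read 6.42, 6.59 and 6.46 on the occluded and 6.66, 6.74 and 6.94 on the contralateral arrays, a difference of -0.29 (SE 0.11). Edn2, the endothelin 2 precursor, was at 0.28 (SE 0.12) and Nppa, the atrial natriuretic peptide precursor, at -0.19 (SE 0.09). The 3 genes each had a limma adjusted p = 0.823. Cartpt, the CART precursor, which was picked out after its values were seen, was the higher gene with no overlap, at 10.79, 10.58 and 10.60 against 10.38, 10.35 and 10.56, a difference of 0.23 (SE 0.11). Adm, adrenomedullin, also picked out after its values were seen, had the largest difference of this list, 0.81, but an SE of 0.47: contralateral replicate 1 read 4.29 while the other 5 arrays lay between 5.74 and 6.39, and without it the difference was 0.23.

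**Figure D3:**
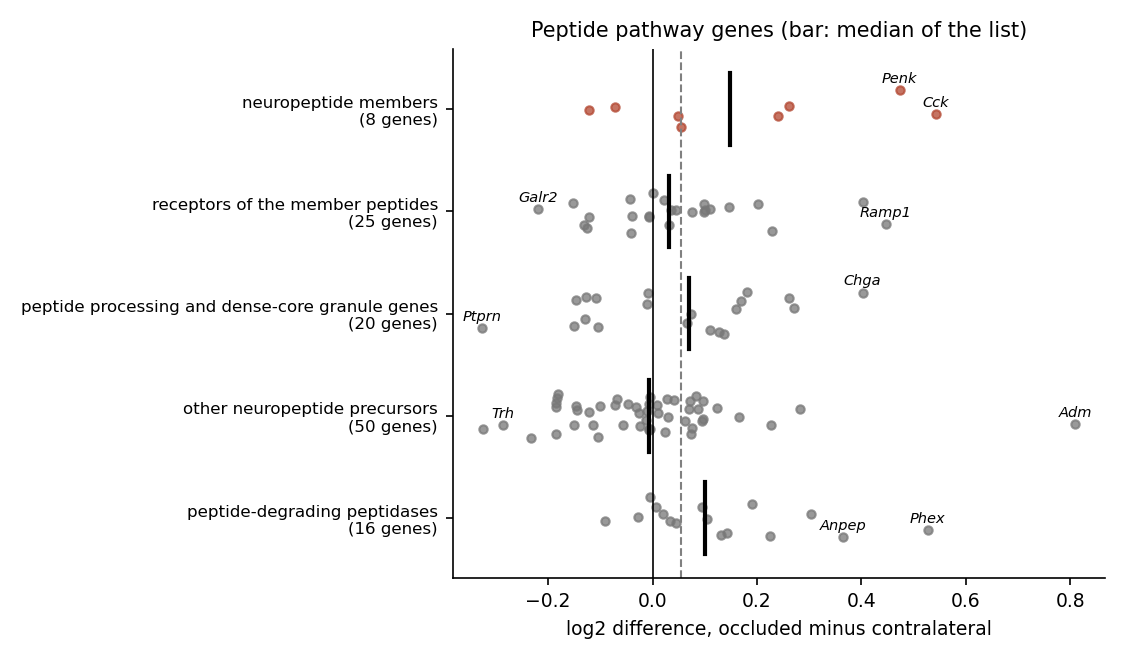
Log2 difference between the sides (horizontal axis, occluded minus contralateral) of each measured gene in 5 lists of peptide genes (rows; vertical position within a row carries no value). Black bars are list medians, from -0.01 for other precursors to 0.15 for the neuropeptide members, and the dashed line is the median of all probe sets, 0.06; no gene passed the adjusted threshold.

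Markers of other cells that could carry these transcripts were read on the same arrays. The list of olfactory bulb and brain neurons, the cells in which Cck is best known, had 10 of 11 genes above 0 and a median log2 difference of 0.10. Its mean log2 value ran from 7.32 to 7.48 on the occluded and from 7.27 to 7.31 on the contralateral side. The sides did not overlap, which was not particular to this list. The means of the mature neuron, ensheathing glia, macrophage, connective tissue and endothelial lists did not overlap either. The median level of its genes, 7.07, lay within the range of the background reference genes. Of the 11 genes 1, Neurod6, lay under the background median. Without occluded replicate 1 the median difference of the list was 0.05 with 7 of 11 above 0. The Cck difference without that replicate was 0.51. A median over dim markers cannot be set against the size of a difference in 1 gene. The part of these cells in the Cck value was not tested. Slc17a7, picked out after its values were seen, the glutamate transporter of bulb output neurons, read 6.84, 7.25 and 6.82 against 6.73, 6.72 and 6.83, with occluded replicate 2 apart. Gad1, Eomes and Slc32a1 were also highest in occluded replicate 2. Reln, Tbr1, Cdhr1, Tbx21, Camk2a and Neurod6 were highest in occluded replicate 1. Gad2 was the gene of the list below 0, at -0.13 (SE 0.10).

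The macrophage, connective tissue and endothelial lists had their highest means in occluded replicate 1. The 7 macrophage genes were all above 0, with a median of 0.38 and a mean log2 value of 8.21 to 8.83 on the occluded against 7.83 to 8.16 on the contralateral side. The 7 connective tissue genes were all above 0, with a median of 0.23 and means of 12.00 to 12.31 against 11.78 to 11.98. Without occluded replicate 1 the medians were 0.21 for macrophages, 0.11 for connective tissue and 0.18 for endothelium, where they had been 0.38, 0.23 and 0.36. Penk, which fibroblasts and immune cells can also express, was at 9.21, 9.22 and 8.72 in occluded replicates 1, 2 and 3. On those arrays the macrophage means were 8.83, 8.28 and 8.21 and the connective tissue means 12.31, 12.13 and 12.00. The part of these cells in the Penk and Phex values was not tested.

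Of the remaining lists, mature olfactory neurons had 9 of 10 genes above 0, with a median of 0.16 and mean log2 values of 11.44 to 11.56 against 11.29 to 11.39. Olfactory ensheathing glia had 6 of 7 above 0 and a median of 0.04, with means up to 9.08 on the occluded and of 8.86 to 8.93 on the contralateral side, without overlap. With occluded replicate 1 left out, ensheathing glia had a median of 0.17 and 5 of 7 above 0, and their part in the Npy value was not tested. Immature neurons had 0 of 8 above 0 and a median of -0.04, and sustentacular cells 1 of 4 and -0.07. Microvillar and tuft cells had 5 of 8 and 0.07, enteroendocrine-type cells 3 of 5 and 0.00, and mast cells 3 of 5 and 0.04. Trigeminal sensory neurons had 6 of 8 and 0.07, with 3 of the 8, Scn10a, Scn11a and Trpm8, under the background median. Autonomic ganglion neurons had 5 of 7 and 0.05. Below that level also lay 2 of the 5 mast cell genes, 1 of the 5 enteroendocrine-type genes and 1 of the 7 autonomic genes. Without occluded replicate 1 the medians were 0.0049 for microvillar and tuft cells, 0.0067 for mast cells, 0.03 for trigeminal, 0.02 for autonomic and -0.03 for enteroendocrine-type cells. The background reference list itself had 7 of 19 above 0 and a median of -0.06.

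**Figure D4:**
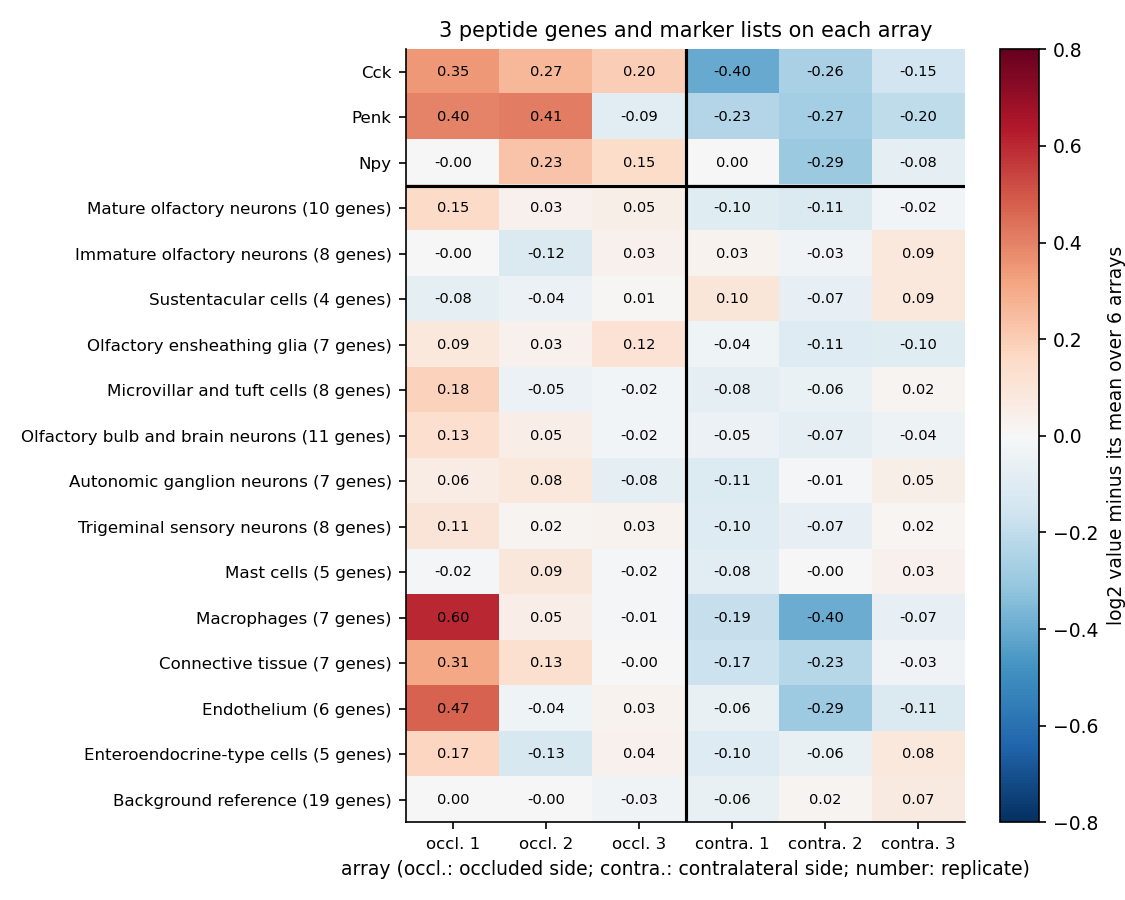
Log2 value on each array minus its mean over the 6 arrays (colour and printed numbers), for 3 peptide genes (top rows) and as the mean over each marker list (lower rows). Columns are the 3 occluded arrays, then the 3 contralateral ones. Cck is above its mean on all occluded arrays. Cck and, among other rows, the macrophage, endothelial and connective tissue lists are highest in occluded replicate 1.

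The genes whose values ran most like those of Cck over the 6 arrays were Rps27l, Gm7180, Rcn1, Car13 and Muc13. They came from 5434 probe sets with 1 symbol, a mean at or above the background median and a spread of 0.5 or more of that of Cck. Pearson's r was 0.991 for Rps27l, a ribosomal protein relative, 0.990 for Gm7180, 0.984 for Rcn1, a calcium-binding protein of the endoplasmic reticulum, 0.979 for Car13, a carbonic anhydrase, and 0.979 for Muc13, a membrane mucin. Spearman's rho was 1.00 for Rps27l, Gm7180 and Muc13 and 0.943 for Rcn1 and Car13. An r above 0.9 was reached by 110 of these probe sets. The values are a description of the highest among many, and the difference between the sides enters each of them, so no p is given. Rps27l read 9.36, 9.21 and 8.98 on the occluded and 8.21, 8.47 and 8.59 on the contralateral arrays, the same order of arrays as Cck.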

How the data were processed

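Total RNA of olfactory epithelium was measured on 6 Affymetrix Mouse Exon 1.0 ST arrays, 3 per side. Per the labels, the authors' log2 values come from Expression Console, run as a core-gene analysis with RMA, which corrects background, equalises probe distributions and summarises probes by median polish. The software version and the genome build are not given in the sources used here, scanner files were not used, and no depth applies to arrays.

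Names were taken from the annotation of the array platform: 14996 of the 23332 probe sets had a single symbol (14860 genes), 7317 had none and 1019 had more than 1. Where a gene had several such probe sets, that with the highest mean over the 6 arrays was used.

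Occluded and contralateral arrays were set against each other in a two-sided limma fit (version 3.58.1, R 4.3.3) over all probe sets without a replicate block, with Benjamini-Hochberg adjustment and a threshold of 0.05. The fit was checked on simulated data. Alternatives were replicate blocks, leaving out each array, 3 scalings, other variance priors, array quality weights, filters and thresholds. Summaries and figures were made with Python 3.11.15, pandas 2.3.3, numpy 2.4.6 and matplotlib 3.10.9.

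The members, the lists and the rules were chosen with earlier results of these data known. The named genes were the members, the 3 genes of each pathway list with the smallest p, the receptors of Cck and the 5 genes most like Cck; genes named outside that rule were chosen after their values were seen. Marker lists are named with their values in the report.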

Additional observations from a re-analysis of the deposited data

How the results depend on the processing

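The 7 tested members had no adjusted p under 0.05 in any of the 14 alternatives each, and Cck, which was not tested, stayed above 0, at 0.46 to 0.60. Signs turned for members near 0. With each array centred on its median Adcyap1 was at -0.029, Sst at -0.024, the receptor median at -0.048 and the processing median at -0.0091, and with array quality weights the median of other precursors was 0.0037. Centring subtracts the same amount from every difference; the cause of the other changes was not tested. With 1 array left out the ranges were -0.025 to 0.12 for Adcyap1, -0.14 to 0.18 for Sst, -0.25 to 0.10 for Tac1, -0.00089 to 0.057 for the receptor median and -0.051 to 0.040 for the median of other precursors. Members whose sides did not overlap numbered 2 under cyclic loess and under a further quantile normalization (Cck and Penk, without Vip). The shares of all probe sets there were 12.2% and 11.6%. With 1 array left out the members numbered 3 to 5, beside 16.2% to 28.9% of all probe sets. They numbered 5 without occluded replicate 1 or contralateral replicate 1, beside 19% and 17.1%, and 4 without contralateral replicate 3, beside 28.9%. Calls over the array were 0 to 1 with 1 array left out, 1 with probe sets of 1 symbol only (S100a5) and 62 with array quality weights. The last setting gave occluded replicate 3 a weight of 7.02, against 0.22 to 2.39 for the other arrays. With a fixed replicate block the calls were 0, the Cck difference 0.54 and that of Penk 0.47 (limma adjusted p = 0.830); no tested member passed with it. The labels do not say that a number marks a mouse, so the numbers were not taken as pairs. Deviations of same-numbered arrays from the side means correlated at 0.0095, 0.17 and -0.041, and 3 of the 6 arrays correlated best with their own number. With 3 arrays a side these values cannot show whether the numbers mark pairs. No gene of the 8 had a second probe set, so the mean over probe sets was not run. With 3 arrays a side and every measured member but Npy and Penk below the highest background reference gene, small differences could not be measured.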
